A study of Mus musculus with 2 samples.

Results

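Transcription factors that pattern the limb, leaving aside the Hox and T-box families, were read in the tissue between the digits of mouse hind limbs. The set was fixed by name, with earlier results of these data known, and holds 49 genes. A gene entered when the array's annotation gave it a probe set that named no other gene, which was true of 48. Sp9 was not analysed here. Of these 48, 42 had an intensity above a floor of 78.1 on at least 1 array and are called measured, out of 11621 measured genes among 18193 named ones. On neither array did Alx1, Alx4, Meis3, Sall3, Foxd1 or En1 pass the floor.

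The 2 samples were a wild-type array, labelled B6 (the C57BL/6 strain), and an array of homozygous Hammer toe, a mutant with webbed digits, both at E13.5, a mid-gestation stage. Interdigital regions 2 and 3 were dissected from hind limbs. The series describes 3 sets of 5 littermates, 15 embryos per genotype, but only 1 array per genotype was used here, and how embryos were combined on it is not given. The strain background of the mutant is not labelled, so strain and genotype cannot be told apart. A single array a genotype allows no test and gives no replicate error, so the number of arrays limits the precision. Sizes are read against the spread of all genes.

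These factors bind DNA and set where a limb cell lies and what it becomes. Homeobox, Iroquois and LIM factors mark position along the limb's axes, basic helix-loop-helix, Snail and Twist factors act in mesenchyme, and Dlx and Sp factors act in the apical ridge, the epithelium at the limb tip that drives outgrowth. By the time digits form, many of them are used again in joints, cartilage condensations and the mesenchyme between digits.

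In median size, the members differed between the arrays more than all genes did, in both directions and without a common shift. Most members nevertheless lay inside the range of genes of similar intensity. Dlx1, Osr2, Foxc2, Irx6, Twist2 and Irx5 read higher in Hammer toe, by more than the middle 95% of genes of similar intensity, and Irx1, Foxc1 and Hand2 were lower by more than that range. The median log2 ratio of Hammer toe over wild type came to 0.06 over the 42 members and 0.01 over all measured genes. There were 23 members higher and 19 lower, where 51.7% of all genes were higher. The median size of the log2 ratio, whatever its direction, was 0.20 in the members and 0.12 in all genes. Only 54.8% of members lay within 1.2-fold, compared with 79.5% of all genes. None of the 38 members above the floor on both arrays reached 2-fold, and the bounds of the other 4 were under it, so that these may differ by more.

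**Figure D1:**
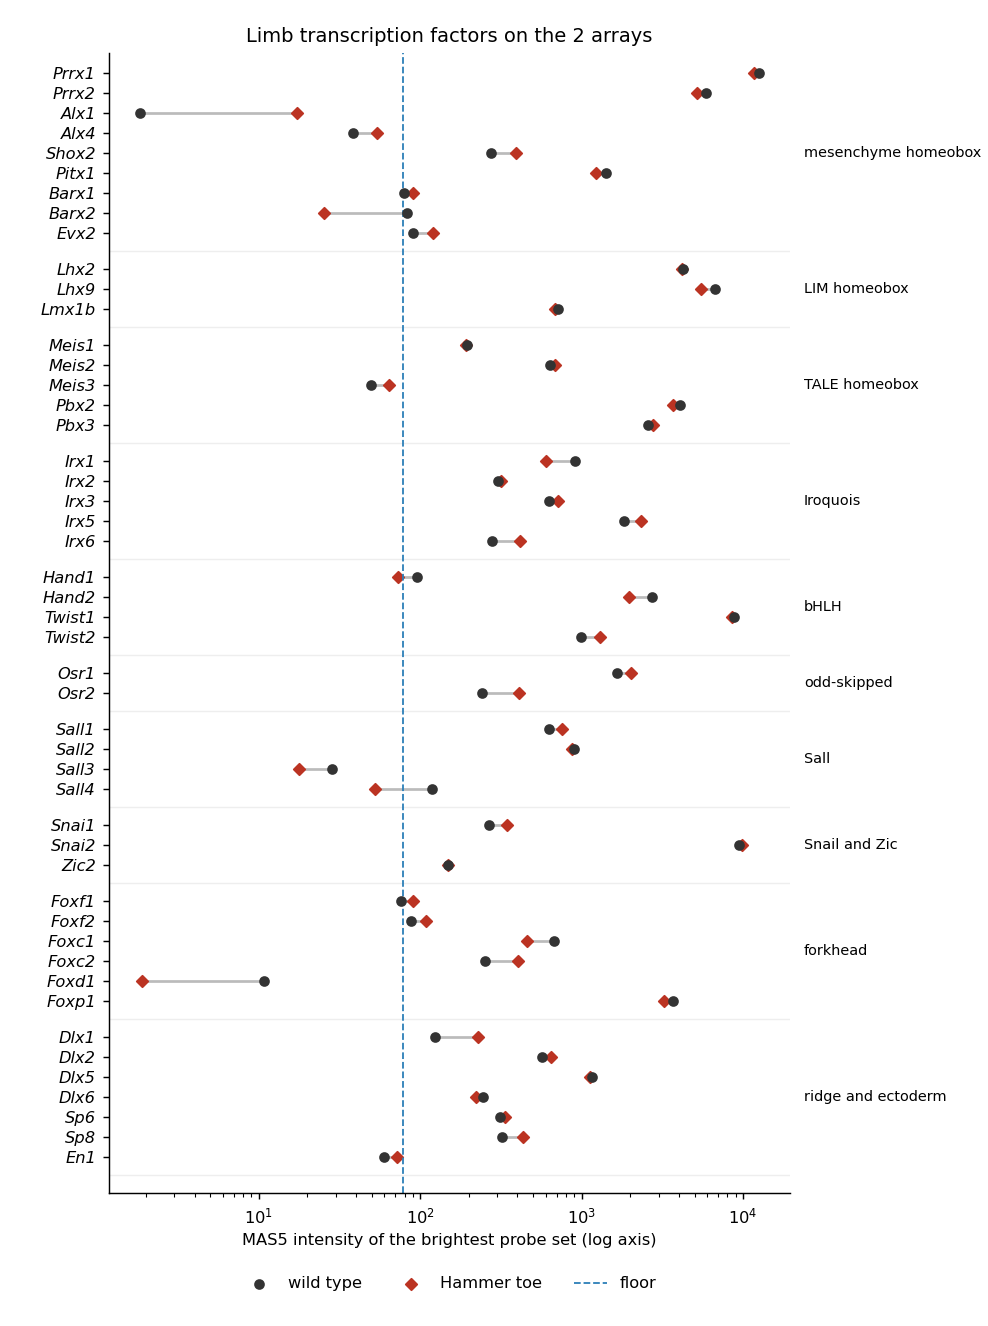
MAS5 intensity (log axis) of the brightest probe set of the 48 members with a probe set, in wild type (dark circles) and Hammer toe (red diamonds), grouped by family, with the floor of 78.1 as a dashed line. Pairs such as Dlx1, Osr2 and Foxc2 are spread with Hammer toe to the right, Irx1, Foxc1 and Hand2 with Hammer toe to the left, and Prrx1, Lhx2 and Twist1 nearly overlap.

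The range that genes cover depends on how bright they are, so each member was set against genes in its own class of intensity on the brighter array. The middle 95% of log2 ratios ran from -0.66 to 0.72 for the 2070 genes up to 200, from -0.48 to 0.58 for the 4857 genes between 200 and 1000, and from -0.29 to 0.32 for the 4694 genes above 1000. Outside this range were 9 of 42 members, 21.4%, where 5.03% of all genes lie outside by construction. None of these 9 belonged to the 9 members of the dimmest class, 6 belonged to the 18 of the middle class, and 3 to the 15 of the brightest. The members were chosen with earlier results of these data known, so the share of 21.4% is a description and no test. Among the marker lists read beside the members, this share ran from 10% for endothelial to 50% for cartilage genes. In the middle class the median size of the log2 ratio was 0.32 for members and 0.14 for all genes, and in the brightest class 0.17 and 0.08. In the dimmest class these medians were 0.21 and 0.22, which are close to each other. At 1.5-fold or more, 3 members were higher, against 2.17% of all genes, and 2 were lower, against 1.39% of all genes. The lower ones were Irx1 and Sall4, and Sall4 was under the floor in Hammer toe. The lower count was therefore 1 among members above the floor on both arrays, and 1 with the mean over probe sets. Without a floor, 4 of 48 members were higher and 5 lower, against 13.0% and 12.6% of all genes.

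**Figure D2:**
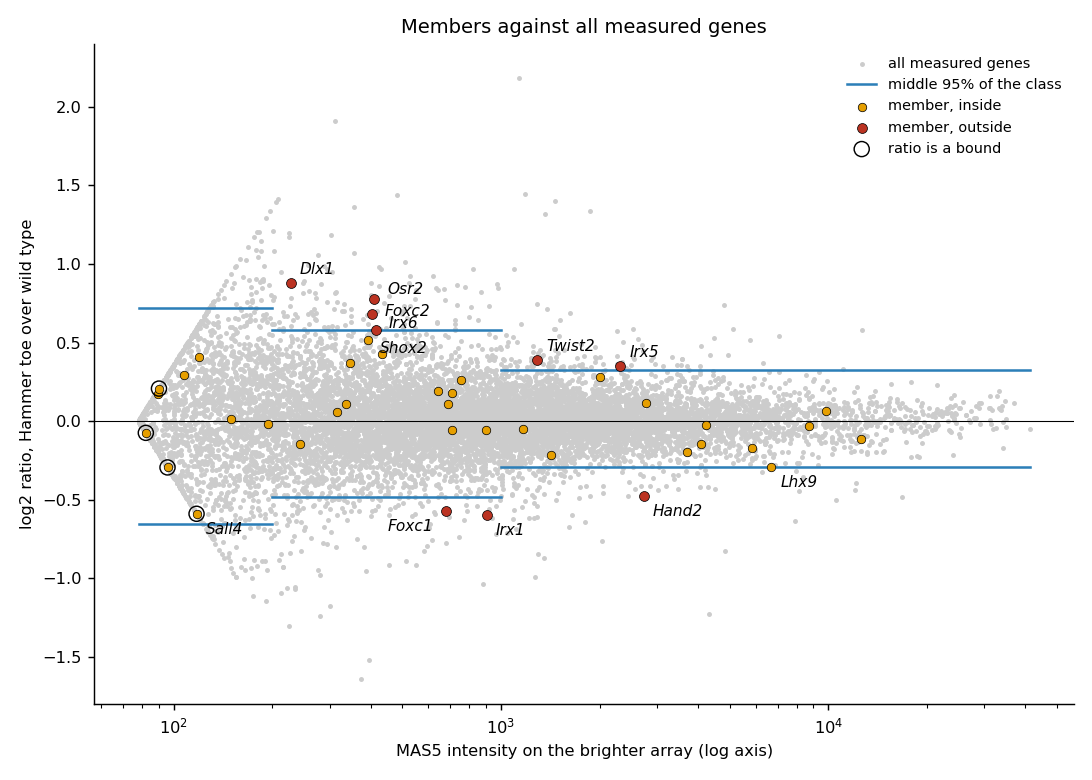
Log2 ratio, Hammer toe over wild type, against intensity on the brighter array (log axis), for all measured genes in grey and the 42 measured members in colour, with blue lines at the bounds of the middle 95% of each intensity class. The 9 red members lie outside the lines, 6 above and 3 below, and the 4 circled members have 1 array under the floor, so their ratios are bounds.

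Dlx1 had the largest ratio of the 38 members above the floor on both arrays. This homeobox gene of the Distal-less family went from 124 in wild type to 228, 1.84-fold higher, on its only probe set. Its neighbour on the chromosome and close relative, Dlx2, read 564 and 644, a log2 ratio of 0.19, inside its range. The other pair of the family, Dlx5 and Dlx6, which are needed together in the apical ridge for the central digits, was slightly lower, from 1164 to 1126 and from 244 to 221. Thus in both pairs the neighbours lay on the same side of wild type, and only Dlx1 was outside its range. Sp8, a zinc finger factor required for the ridge, was 1.34-fold higher, from 322 to 433, and Sp6 was 1.08-fold higher, from 311 to 335. Of the 6 measured ridge and ectoderm members, 4 were higher and 2 lower, with a median of 0.15. Of 16 markers of surface ectoderm, 14 were higher, with a median log2 ratio of 0.43. Their summed intensity was 14541 in wild type and 18894 in Hammer toe, and none was at 0. Their part in the ridge members' values was not tested, and in a bulk sample more cells of a type and more RNA per cell cannot be told apart.

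The odd-skipped genes Osr1 and Osr2, zinc finger factors of connective tissue and developing joints, were both higher. Osr2 went from 240 to 410, 1.71-fold higher, on a probe set of the _a_at type, while its other probe set passed the floor on neither array. Osr1 read 1654 and 2009, a log2 ratio of 0.28, which is below the limit of 0.32 for genes this bright.

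Forkhead members went both ways. Foxc1 and Foxc2 are closely related genes of skeletal, vascular and other mesenchyme. Foxc2 was 1.60-fold higher, from 252 to 403. Foxc1 was 1.48-fold lower, from 677 to 456, and its second probe set gave 505 and 351, a log2 ratio of -0.52. The Foxc genes were therefore on opposite sides of wild type, each outside its range. Foxf1 and Foxf2, mesenchymal genes known as hedgehog targets, read close to the floor. Foxf2 read 88.0 and 108, and Foxf1 read 75.6, under the floor, and 90.2, at least 1.15-fold higher. Each Foxc gene lies close to a Foxf gene: Foxc1 directly follows Foxf2, and 1 other coding gene, Mthfsd, lies between Foxf1 and Foxc2. In the first pair the log2 ratios were 0.29 and -0.57, and in the second 0.21 and 0.68. Foxp1, a forkhead repressor, read 3693 and 3223 on its brightest probe set. Its 7 measured probe sets ran from -0.45 to 0.04, and 6 of them were lower.

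Of 5 Iroquois genes, homeobox factors of limb and neural patterning, 4 were higher. Irx3, Irx5 and Irx6 follow each other on the chromosome with no coding gene between, and all 3 were higher: Irx3 from 627 to 709, Irx5 from 1815 to 2314 and Irx6 from 278 to 415. Their log2 ratios were 0.18, 0.35 and 0.58, and those of Irx5 and Irx6 were outside the range for their brightness, Irx6 only just. Irx1, which adjoins Irx2 on another chromosome, was 1.51-fold lower, from 904 to 597, and Irx2 read 304 and 316. Irx4, which belongs to that family but not to the set, read 79.7 and 132, a log2 ratio of 0.72 at an intensity close to the floor. Each Iroquois gene rested on a single measured probe set.

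Among basic helix-loop-helix genes, Hand2, the posterior factor that turns on Shh in the early limb bud, was 1.39-fold lower, from 2736 to 1970. That size is small, but genes above 1000 seldom reach it on the lower side, where the limit was -0.29. A dimmer probe set of Hand2 read 140 and 78.3, a log2 ratio of -0.84, and the third, under the floor in Hammer toe, gave a bound of -0.08. The related Hand1 read 95.8 and 72.4, at least 1.23-fold lower. Twist1, needed for limb mesenchyme, was nearly level at 8736 and 8542. Twist2, known from dermal and other mesenchyme, was 1.31-fold higher, from 985 to 1292. Its ratio of 0.39 lay outside the range for genes above 1000, but its wild-type reading was itself under 1000.

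Of the 9 members outside their range, 4 have an entry in RefSeq's promoter table, and the 250 bases before the start this table gives (GRCm38.p6, plus strand in each case) are shown to give the sequence context of these genes. The windows are chr2:71529195-71529444 for Dlx1, chr13:31806396-31806645 for Foxc1, chr8:57320733-57320982 for Hand2 and chr1:91801211-91801460 for Twist2. For Dlx1 this start lies downstream of the outermost start RefSeq annotates. They were searched on both strands for TAATTA (a homeodomain core), TGACAG (a Meis core), CAGGTG (a Snail E-box) and GACCACCCA (a GLI site), and capitals mark the exact matches.
Dlx1: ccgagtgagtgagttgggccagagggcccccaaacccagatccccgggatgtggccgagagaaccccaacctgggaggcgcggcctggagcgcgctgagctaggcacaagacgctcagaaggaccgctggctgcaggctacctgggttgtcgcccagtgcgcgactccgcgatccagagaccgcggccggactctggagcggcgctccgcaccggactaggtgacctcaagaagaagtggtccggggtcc
Foxc1: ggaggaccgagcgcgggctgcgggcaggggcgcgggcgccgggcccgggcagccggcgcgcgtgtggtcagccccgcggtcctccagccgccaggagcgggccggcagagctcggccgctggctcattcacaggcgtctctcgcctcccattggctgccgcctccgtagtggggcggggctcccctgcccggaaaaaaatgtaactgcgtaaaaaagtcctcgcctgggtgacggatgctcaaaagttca
Hand2: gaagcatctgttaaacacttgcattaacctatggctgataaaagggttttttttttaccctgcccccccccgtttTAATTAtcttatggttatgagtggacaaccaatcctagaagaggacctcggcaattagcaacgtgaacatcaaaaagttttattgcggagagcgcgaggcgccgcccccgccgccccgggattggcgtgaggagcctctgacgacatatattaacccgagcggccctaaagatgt
Twist2: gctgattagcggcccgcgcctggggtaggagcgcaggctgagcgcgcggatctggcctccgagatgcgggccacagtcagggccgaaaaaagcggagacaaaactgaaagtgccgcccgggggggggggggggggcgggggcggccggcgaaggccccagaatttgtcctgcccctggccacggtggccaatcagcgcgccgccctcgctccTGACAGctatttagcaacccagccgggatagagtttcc

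Hand2 held 1 homeodomain core, 175 bases before the start, and Twist2 held 1 Meis core, 38 bases before it, while none of the 4 motifs was found in the windows of Dlx1 and Foxc1. The GC content of the windows was 68.0% for Dlx1, 70.8% for Foxc1, 68.8% for Twist2 and 49.2% for Hand2. The median was 52.4% over all 32851 windows of the table and 63.6% over the windows of members. The table holds 37 windows for 29 members. TAATTA was in 4 of these 37 windows and in 4.84% of all windows, and TGACAG was in 7 and in 15.9%. The Snail E-box CAGGTG was in 4 member windows and in 17.2% of all, and the GLI site GACCACCCA in 0 member windows and in 0.225% of all. The motifs share no overlapping letters in the windows shown, and a match describes letters only.

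The general mesenchymal homeobox genes were close to wild type on their brightest probe sets. Prrx1, a factor of limb bud mesenchyme, read 12614 and 11651, and all 5 of its measured probe sets were lower, by log2 ratios of -0.11 to -0.04. Prrx2, its partner, read 5858 and 5203. Pitx1, which specifies hind limb identity, read 1423 and 1228, with log2 ratios of -0.21 and -0.31 on its probe sets. The second, at 1425 and 1146, was past the limit of -0.29 for genes above 1000. Tbx4, another hind limb gene, read 2812 and 2558, and Tbx5, a fore limb gene, passed the floor on neither array. Interdigital and distal markers were bright on both: Aldh1a2, the retinoic acid enzyme of the interdigit, read 13129 and 11474, and Hoxd13 read 17291 and 15779. Hoxa13, another distal gene, read 1009 and 761, a log2 ratio of -0.41, and was the only tissue marker outside the range of its class. Its wild-type reading was only just above 1000, and for genes between 200 and 1000 the limit was -0.48. Of the 8 measured tissue markers, 7 were lower, with a median of -0.17.

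Shox2, needed for the skeleton of the proximal limb segment, was 1.43-fold higher, from 274 to 392, a log2 ratio of 0.51 inside the range of its class. The other probe set of Shox2 stayed below the floor throughout. Evx2, which neighbours the Hoxd genes, was close to the floor at 89.9 and 120. Barx1 read 79.3 and 89.6. Barx2 read 82.2 and 25.5, which at this floor gives only a bound of 1.05-fold lower.

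LIM homeobox genes were all lower. Lhx9, which with Lhx2 ties signals of the apical ridge to growth of the distal mesenchyme, read 6689 and 5467. This log2 ratio of -0.29 lay at the edge of its range, and the other 3 probe sets stood lower, at -0.41, -0.61 and -0.47. Lhx2 read 4231 and 4162, and Lmx1b, the factor of dorsal identity, 708 and 680. Thus among these genes only Lhx9 was more than 1.05-fold from wild type, and all 4 of its probe sets were on the same side.

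TALE homeobox members, which include Meis factors of the proximal limb and the Pbx cofactors of Hox proteins, were all within 1.2-fold on their brightest probe sets. Meis1 read 194 and 192. Meis2 read 637 and 687, but its dimmer probe sets gave log2 ratios of 0.41, from 393 to 522, and 0.59, from 161 to 241. Pbx2 was lower on all 3 probe sets, at 4090 and 3701 on the brightest. Pbx3 read 2570 and 2780, and its second probe set stood at -0.01.

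Of the 6 measured zinc finger members of the Sall, Snail and Zic families, Sall2, Snai2 and Zic2 were within 1.2-fold on their brightest probe sets. Sall1, mutated in a human syndrome with limb defects, read 629 and 756, a log2 ratio of 0.26, while Sall2 read 900 and 868. Sall4, linked to human radial ray defects, read 117 and 52.5, which gives a log2 ratio of -0.59 as a bound, just past 1.5-fold. A second probe set of Sall4 was just above the floor in wild type, at 78.8, and gave a bound of -0.01. Snai1, a repressor of epithelial genes, was 1.29-fold higher, from 268 to 346. Snai2 read 9403 and 9829 on an _x_at probe set, a design that may also bind similar transcripts, and -0.02 as a log2 ratio on the other. Zic2 was level at 148 and 149.

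**Figure D3:**
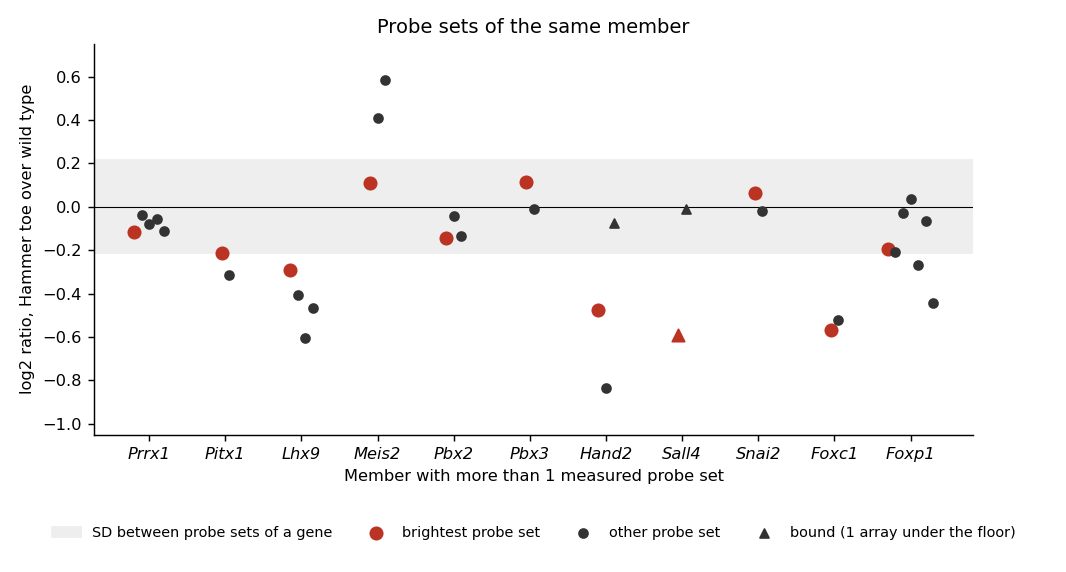
Log2 ratio, Hammer toe over wild type, of each measured probe set for the 11 members with more than 1, the brightest in red, with triangles where 1 array is under the floor so that the ratio is a bound. The grey band is 1 SD, 0.21, of the disagreement between probe sets of a gene. Both probe sets of Foxc1, all 4 of Lhx9 and 2 of the 3 of Hand2 lie below the band, and Meis2 has 1 probe set inside it and 2 above.

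Where a member had several measured probe sets, they mostly pointed the same way. Of 11 such members, 8 had all measured probe sets on 1 side of wild type, counting bounds at their bound. Over all genes with more than 1 measured probe set this was so for 42.5%. That share covers genes of any intensity and number of probe sets, so it is not matched to the members. The exceptions were Foxp1, Pbx3 and Snai2. The pooled SD of log2 ratios between probe sets of a gene was 0.21, over 5134 genes with at least 2 probe sets bright on both arrays. Of the 9 members outside their range, Foxc1 and Hand2 had a second measured probe set, and the other 7 rested on 1.

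Related transcription factors outside the set were read in the same way. This list of 59 paralogues, cofactors and other mesenchymal factors had 36 measured genes, 19 higher and 17 lower, with a median log2 ratio of 0.03. Within 1.2-fold were 27 of them, and 11.1% were outside the range of their intensity class. Zeb2, a zinc finger repressor related in action to Snail, was 1.78-fold higher, from 308 to 548, and Irx4 was 1.65-fold higher. A second probe set of Zeb2 stood at 0.93 and the third at -0.03. None was 1.5-fold or more lower. The difference between the members and this list was not tested.

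**Figure D4:**
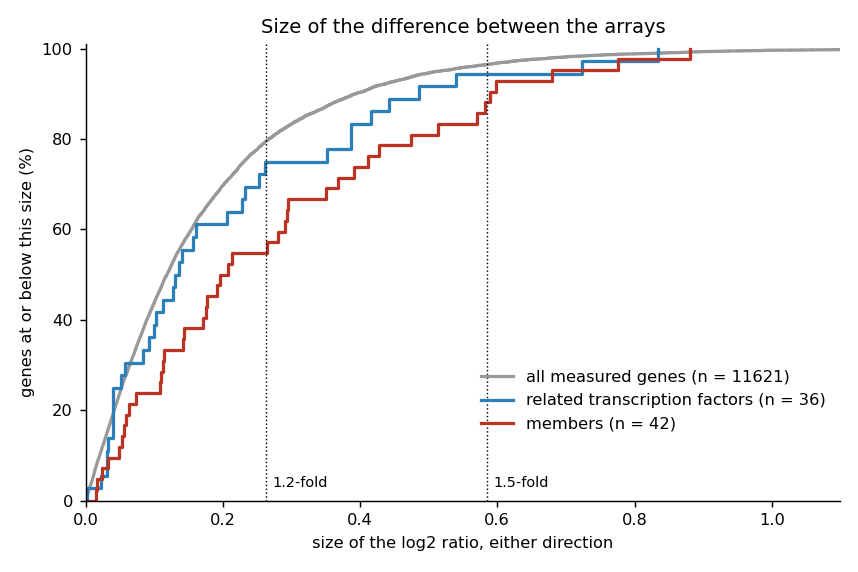
Cumulative share of genes (in percent) by size of the log2 ratio in either direction, for all 11621 measured genes, the 36 related transcription factors and the 42 members. The curve of the members lies to the right, with 23 of 42 within 1.2-fold against 27 of 36 and 9241 of 11621.

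Markers of other cells in the tissue also differed between the arrays. Cartilage markers were lower in 13 of 14, and the summed intensity of all 16 listed went from 17016 in wild type to 11094. Macrophage markers were higher in 11 of 12, from 3600 to 4677 in sum. Skeletal muscle markers were higher in 5 of 7 measured, from 1349 to 1864 in the sum of all 13 listed. The brightest of them, Actc1, read 419 and 820. Erythroid markers were lower in 7 of 8, from 58260 to 50035. Endothelial markers were even, 5 higher and 5 lower. Schwann and nerve markers were higher in 4 of 5, from 1469 to 1575 in sum, but with a median log2 ratio of only 0.04. Among the 4, Sox10 counted through a bound at the floor, from 27.3 to 78.1, while Ngfr was lower, from 569 to 433. The sums cover every listed marker with a probe set, also those under the floor on both arrays. No listed marker was at 0. Their part in the members' values was not tested.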

How the data were processed

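Affymetrix arrays were used to read RNA from 1 wild-type and 1 Hammer toe sample, with biotinylated cRNA made from 250 ng of total RNA, per the labels' protocols. The deposited intensities are linear values. Per the submitters' processing notes, the authors made them with MAS5 in Affymetrix Expression Console. MAS5 scales each array, so a shift of most transcripts together cannot be seen. The trimmed mean (2% at each end) was 500.003 on both arrays.

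Of 45037 probe sets other than controls, 34945 named 1 gene, 932 several and 9160 none. Symbols were updated through the gene ID with RefSeq's GRCm38.p6 table, which matched all but 204, and the order of genes came from the same table. Each gene took the values of 1 probe set, that of highest mean over the 2 arrays. Values under 78.1, the median of all values, were raised to it before log2 ratios were taken, so a ratio with 1 array under this floor is a lower bound. The floor is a choice and no measured background.

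Every measured member is named with its values, other probe sets being given at 1.5-fold or more, where they go the opposite way, or as further examples. Related factors are named at 1.5-fold or more. The members, lists and settings were chosen with earlier results of these data known. The script was tested on simulated data. Python 3.11.15, pandas 2.3.3 and statsmodels 0.14.6 were used. Alternatives were other normalizations, floors, filters, probe set rules and fold sizes.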

Additional observations from a re-analysis of the deposited data

Results flagged for a closer look

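A dimmer probe set of Meis2, not used for the gene's value, had a log2 ratio of 0.59, Hammer toe over wild type, from 161 to 241. The brightest probe set of Meis2 stood at 0.11. It was singled out as the only probe set outside the main values of the members that was at least 1.5-fold above wild type. It is of the _x_at type.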

How the results depend on the processing

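Median centring, quantile normalization and lowess correction left the 5 members at 1.5-fold and the 9 outside their intensity range as reported, and of all members only Zic2 changed sign, to -0.02 with lowess. With the floor at the 75th percentile, 23 members remained measured, with a median of -0.049, 0 higher and 1 lower at 1.5-fold, and 5 outside their range. Without a floor, 4 of 48 members were at 1.5-fold or more higher and 5 lower. Among all genes 13.0% and 12.6% were, so neither share is higher than the background. With the floor at the 25th percentile, 3 of 46 were higher and 3 lower, against 7.48% and 6.89% of all genes, again no higher. The lower count was 1 with both arrays above the floor and 1 with the mean over probe sets, since Sall4 then left it. At 1.3-fold, 8 members were higher and 4 lower, against 6.32% and 4.59% of all genes, and at 2-fold there were 0 and 0, against 0.258% and 0.112%. The other counts outside the range lay between 8 and 12. Lhx9 was among those outside with the mean over probe sets, where the count was 10, and with the pseudocount, where it was 12. With classes set by the mean of both arrays, an alternative chosen after seeing the data, the count was 10, again with Lhx9. Dropping _x_at, _s_at and _a_at probe sets removed 7 members, Osr2 among them, and turned Snai2 to -0.02. Without a floor, or with one at the 25th percentile, Barx2 and Sall4 stood at -1.69 and -1.16, and with a pseudocount of 50 Barx2 stood at -0.81 and Irx1 came under 1.5-fold. The mean over probe sets gave Meis2 0.37 and Sall4 -0.30. The median of all genes was 0.00 with median centring, 0.0041 with quantile normalization, -0.00057 with lowess, 0.0044 with the floor at the 75th percentile, 0.0042 with the pseudocount, 0.0035 with the mean over probe sets and 0.0037 without the suffixed probe sets. No paired analysis was possible because there is 1 array per genotype. A reading under the floor on 1 array gives a bound only.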
